A study of Gallus gallus with 9 samples.

Results

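The genes of the collagens, the triple-helical proteins of the extracellular matrix, were examined in cultured preadipocytes of the laying hen. Members were all genes whose symbol in the array annotation is COL, a number, A and a number, and each gene was represented by the probe set with the highest mean over the 9 arrays. This gave 41 collagen genes of 13009 genes with a single symbol, read by 121 probe sets. A probe set is a group of short probes meant for 1 transcript, and its value is a log2 level, so a difference of 1 is a 2-fold difference.

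Preadipocytes came from the abdominal fat of 3 Lohman hens of 19 wk and were grown to confluence in medium with 10% fetal bovine serum. All cultures were then kept for 96 hr, and the arrays titled control received no further agent. Those titled DMIOA received oleic acid at 300 μM, insulin at 20 μg/mL, dexamethasone (a glucocorticoid) at 500 nM and 3-isobutyl-1-methylxanthine (an inhibitor of cyclic AMP breakdown) at 0.5 mM. Those titled DMIOA+20(S) received the same cocktail with 5 μM 20(S)-hydroxycholesterol, an oxysterol. These treatments are those of the titles, and whether titles were exchanged between arrays was not tested. The adipocyte gene FABP4 read 10.04, 10.23 and 10.22 on control 1, control 2 and DMIOA 1 and 13.39 to 13.73 on the other arrays, control 3 included. Each title group holds 3 arrays described as biological replicates, but no array is tied to a hen, so the p-values measure only the spread between these arrays.

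Collagen chains assemble in threes into a triple helix inside the cell, after hydroxylation of proline and lysine, and are then secreted, trimmed and cross-linked. Fibrillar collagens build the tensile fibers, type IV collagen builds the sheet of the basement membrane, type VI forms beaded filaments around cells, and fibril-associated collagens sit on the surface of fibers. In fat depots preadipocytes are a main source of fibrillar collagen, and each mature adipocyte is wrapped in a basement membrane.

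Titles and measured similarity of the arrays disagreed, so values are given for each array by title and also by closest grouping. Group A holds control 1, control 2 and DMIOA 1. Group B holds DMIOA 2, DMIOA+20(S) 1 and DMIOA+20(S) 2, and group C holds control 3, DMIOA 3 and DMIOA+20(S) 3. Across the 38439 probe sets, pairs of arrays within A, B or C correlated at r = 0.993 to 0.997, pairs of A with B or C at 0.97 to 0.976, and pairs of B with C at 0.989 to 0.995. Pairs that share a title group ran from 0.971 to 0.997. Probe sets, over which these correlations were taken, are no replicates. Group A thus holds 2 arrays titled control and 1 titled DMIOA, B holds 1 titled DMIOA and 2 titled DMIOA+20(S), and C holds 1 of each title. Groups A, B and C rest on the measured values, collagens included, and are described below without a test of one against another and not as treatments. The exception is that C is the replicate 3 arrays, which the labels set apart and which were tested against the rest. Medians of the 9 arrays ran from 2.11 to 2.14 and their highest values from 14.30 to 14.65.

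The fibroblast markers VIM, the intermediate filament vimentin, and DCN, the proteoglycan decorin, read 14.14 to 14.33 and 13.25 to 13.52 over the 9 arrays. Of 9 fibroblast and preadipocyte markers, 8 had a mean log2 value of at least 4. COL1A1, COL1A2 and COL3A1 are among these and are themselves members, so they are no separate evidence of cell type. PDGFRA, a platelet-derived growth factor receptor, was the exception at 1.54. The markers did not run together between the groups. VIM and DCN were higher in B and C than in A with no overlap, and PDGFRB overlapped. LUM and THY1 were lower in B and C with no overlap. Their medians in A, B and C were 12.55, 12.22 and 11.91 for LUM and 8.47, 8.30 and 7.84 for THY1. Of the collagen genes, 18 had a mean of at least 4 and 23 lay nearer the floor of the arrays, where their values ran from 1.11 to 5.92. The probe sets of cartilage markers (ACAN, COL2A1, COL9A1, MATN1 and SOX9) were all 5 below a mean of 4. In RNA from whole cultures, fewer cells of a type and less RNA per cell cannot be told apart.

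By array title, limma called none of the 41 collagen genes in any of the 3 treatment comparisons, at an adjusted p under 0.05 (Benjamini-Hochberg) and a difference of at least 2-fold. Over all 38439 probe sets the share called was 0% for DMIOA against control, 0% for DMIOA+20(S) against DMIOA and 0.0052% for DMIOA+20(S) against control. At an unadjusted p under 0.05 the members numbered 3, 1 and 7 of 41 (7.32%, 2.44% and 17.1%), beside 2.35%, 2.86% and 10.1% of all probe sets. These shares are not of like sets. Each member was read by its brightest probe set, whereas only 11562 of the 38439 probe sets had a mean of at least 4. The 3 comparisons share arrays and are not independent. The methods' t-test before adjustment selected 1 of the 41, COL27A1, in DMIOA+20(S) against control, beside 221 of all 38439 probe sets. After Benjamini-Hochberg adjustment it called 0 members. The median log2 fold change of the 41 genes was -0.02 for DMIOA against control, 0.06 for DMIOA+20(S) against DMIOA and 0.04 for DMIOA+20(S) against control, beside medians of -0.01 over all genes in each comparison. Of the 41, 16, 25 and 23 were above 0.

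The same 4 members had the largest log2 fold changes in size in all 3 comparisons by title. They are COL8A2, a short chain collagen of network sheets, COL23A1, a transmembrane collagen, COL27A1, a fibrillar collagen known from cartilage, and COL14A1, a fibril-associated collagen. COL8A2 measured 4.60 ± 1.79 (SD, n = 3) on the arrays titled control, 3.44 ± 1.44 (SD, n = 3) on those titled DMIOA and 2.66 ± 0.17 (SD, n = 3) on those titled DMIOA+20(S). With a standard error of 0.93, DMIOA against control gave a log2 fold change of -1.17 (limma adjusted p = 0.994) and DMIOA+20(S) against control gave -1.95 (limma adjusted p = 0.496). COL23A1 measured 3.18 ± 1.68, 4.14 ± 1.29 and 5.11 ± 0.20 (SD, n = 3 each) in the same order. The difference between DMIOA+20(S) and control was 1.93 (standard error 0.86, adjusted p = 0.492 from limma).
COL27A1 measured 5.71 ± 0.71, 4.83 ± 0.50 and 4.22 ± 0.14 (SD, n = 3 each), so that DMIOA+20(S) lay below control by a log2 difference of -1.49 (standard error 0.36, limma adjusted p = 0.492). For COL14A1 the levels were 5.46 ± 0.90, 6.22 ± 1.47 and 6.98 ± 0.64 (SD, n = 3 each), and DMIOA+20(S) differed from control by 1.53 on the log2 scale with a standard error of 0.75, which did not pass the adjusted test. Between DMIOA+20(S) and DMIOA the 4 differences were -0.78 for COL8A2, 0.97 for COL23A1, -0.61 for COL27A1 and 0.76 for COL14A1 (adjusted p = 0.977 each from limma). Without the array titled DMIOA 1 the values for COL8A2 and COL14A1 became 0.04 and -0.02, and those for COL23A1 and COL27A1 0.23 and -0.32. In DMIOA against control, the differences of COL23A1, COL27A1 and COL14A1 were 0.96, -0.88 and 0.76 (adjusted p = 0.994 each from limma). Leaving out 1 array moved COL14A1 to 0.088 without DMIOA 2 and to 1.55 without DMIOA 1. It moved COL23A1 to 0.23 without control 2 and to 1.88 without control 3, and COL8A2 to -0.51 without control 1 and to -2.19 without control 3. COL27A1 moved less, between -1.29 and -0.64. For COL8A2, COL23A1 and COL14A1 the SD within each of these title groups was larger than the difference between them.

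**Figure D1:**
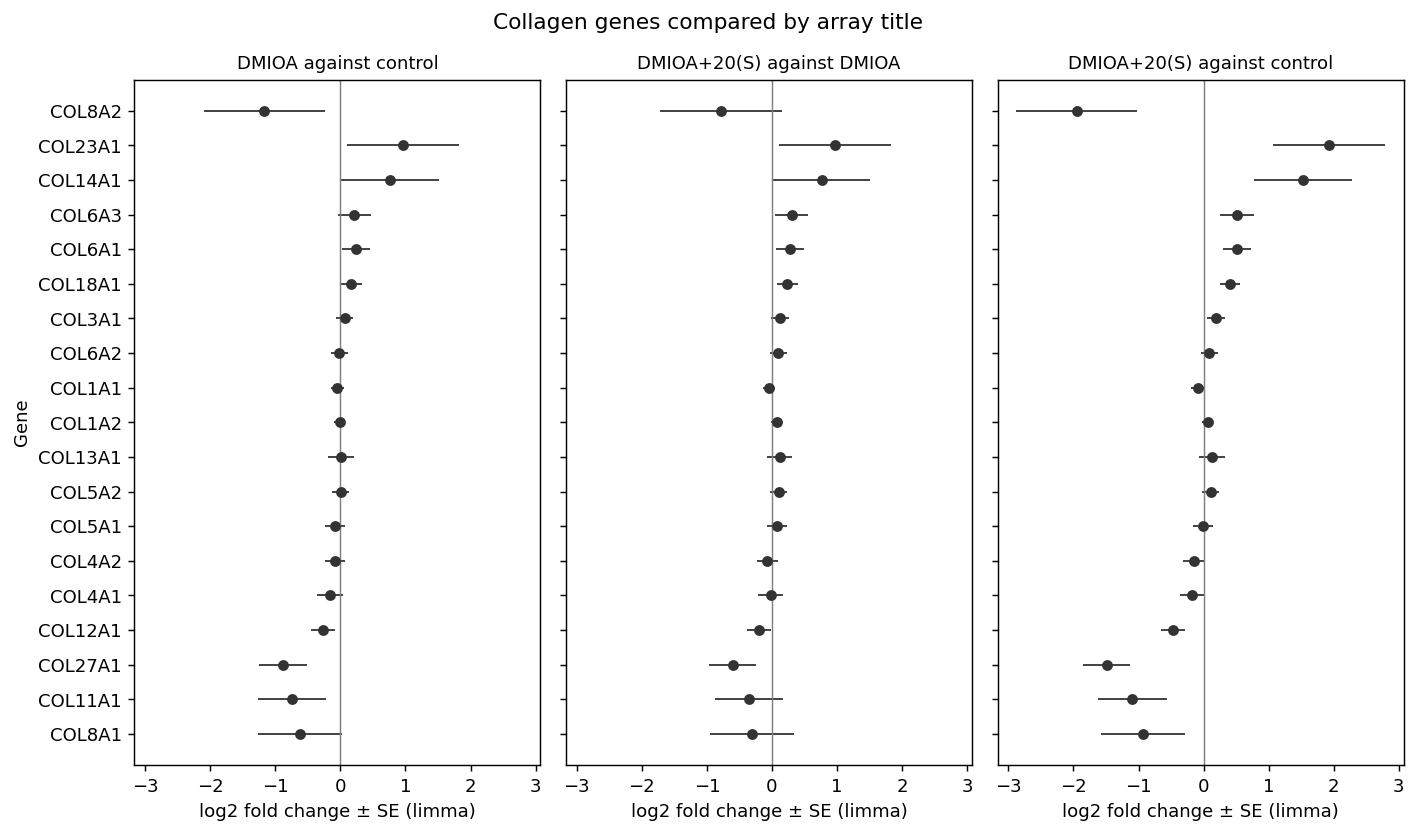
Log2 fold change by array title (x axis, points, with bars of 1 standard error from limma) of the 18 collagen genes with a mean of at least 4 and of COL8A2 (y axis) in the 3 comparisons. None passed the adjusted threshold, and the widest bars belong to COL8A2 (0.93) and COL23A1 (0.86).

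Sorted by similarity, 21 of the 41 collagen genes overlapped between A and B, and 22 between A and C. Of the 41 collagen genes, 20 had ranges in B that did not overlap those in A, 10 higher and 10 lower, or 24.4% each way beside 20.6% and 22.3% of all genes. For C against A, 8 were higher and 11 lower, beside 21.7% and 21.5% of all genes. Gaps of at least 2-fold between medians were found for 6 of 41 (14.6%) in both cases, beside 9.85% and 9.5% of all genes. In both cases 2 were higher and 4 lower, beside 3.86% and 6% of all genes for B and 3.9% and 5.6% for C. Among the 18 clear of the floor, 9 were higher and 5 lower in B, beside 29.6% and 32.3% of the 6620 genes with a mean of at least 4, and 7 were higher and 8 lower in C, beside 31.3% and 30.7%. Gaps of at least 2-fold were found for 5 of these 18 (27.8%) in B and in C, beside 14.9% and 14.3% of the 6620. The limit on the mean over all arrays is itself tied to the groups. COL23A1 (mean 4.15) passed it only through its high values in B and C, and COL8A2 (mean 3.57), high only in A, did not pass. Because A, B and C were formed from these same arrays, the counts describe the grouping and test nothing.

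COL8A1 and COL8A2 encode the chains of type VIII collagen, known from vessel walls and the corneal basement membrane. COL8A1 read 12.88, 12.90 and 12.91 on control 1, control 2 and DMIOA 1, 11.38, 11.44 and 11.50 on DMIOA 2, DMIOA+20(S) 1 and DMIOA+20(S) 2, and 11.03, 10.66 and 11.07 on control 3, DMIOA 3 and DMIOA+20(S) 3. The arrays of A were high and close together, and B and C did not overlap either. The median of B was 2.73-fold and that of C 3.64-fold below the median of A. COL8A2 read 5.92, 5.33 and 5.09 on the arrays of A, between 2.46 and 2.75 on those of B and between 2.49 and 2.76 on those of C. Outside A this probe set lay near the floor, where the authors' processing shrinks differences, and the medians differed from that of A by -2.60 in B and -2.77 in C on the log2 scale. COL10A1, the third short chain collagen and a marker of hypertrophic cartilage, stayed between 1.64 and 2.48 on all arrays.

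Among the fibrillar collagens, COL11A1 and COL27A1 were high in A. COL11A1 encodes a chain of type XI collagen, which takes part in the core of cartilage fibrils. It read 8.70, 8.74 and 8.46 on control 1, control 2 and DMIOA 1, 7.27, 7.09 and 7.27 on the arrays of B in the order above, and 7.17, 6.66 and 6.96 on control 3, DMIOA 3 and DMIOA+20(S) 3. No array of B or C reached those of A, while B and C overlapped. COL27A1 read 6.20, 6.04 and 5.39 in A, 4.45, 4.37 and 4.09 in B, and 4.89, 4.63 and 4.20 in C. The lowest array of A, DMIOA 1, was still above all others.
The brightest probe sets of the major fibrillar genes differed little between arrays, and they lie near the top of the scale. COL1A1, which encodes the alpha 1 chain of type I collagen, read between 13.80 and 14.11 on the 9 arrays, and COL1A2, its alpha 2 chain, between 13.80 and 14.05. COL3A1, the chain of type III collagen, read 13.56, 13.56 and 13.45 in A, 13.93, 13.89 and 13.84 in B, and 13.80, 13.75 and 13.77 in C, the median of B being 1.25-fold above that of A. The next COL3A1 probe set in brightness (mean 13.08) gave a wider gap, with log2 medians 0.996 higher in B and 0.78 higher in C than in A. On DMIOA 1, DMIOA+20(S) 2 and DMIOA+20(S) 3 it lay 0.61, 0.58 and 0.62 above the mean of the other arrays of their group. A dimmer COL3A1 probe set (mean 5.09) went the other way. Its log2 medians differed from that of A by -1.25 in B and -0.30 in C, without overlap. The remaining COL3A1 probe sets had higher medians in B and C than in A. COL5A1 and COL5A2, the chains of type V collagen, which limits the diameter of type I fibers, ran from 12.45 to 12.95 and from 12.17 to 12.67. COL2A1 of cartilage and COL24A1 stayed between 1.57 and 3.18.

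COL14A1 and COL23A1 were low in A. COL14A1 encodes type XIV collagen, which coats fibers and limits their fusion. It read 5.05, 4.83 and 4.65 on control 1, control 2 and DMIOA 1, 7.57, 7.30 and 7.41 on the arrays of B, and 6.49, 6.44 and 6.24 on those of C. The 3 groups did not overlap, B being 5.98-fold above A by their medians and C 3.06-fold. A second COL14A1 probe set of similar brightness (mean 6.18 beside 6.22) gave smaller gaps. Its log2 medians were 1.16 higher in B and 0.32 higher in C than in A, so the size of the difference depends on the probe set. COL23A1 read 2.80, 1.73 and 2.65 in A, 4.86, 5.17 and 4.89 in B, and 5.02, 4.92 and 5.27 in C. Its values in A lay near the floor, and B and C overlapped. The other fibril-associated collagen clear of the floor, COL12A1, moved the other way. Its brightest probe set moved by less than that of COL14A1, with 13.32, 13.44 and 13.18 in A against 12.61 to 12.84 in B and C. The dimmer COL12A1 probe sets, with means of 11.92, 11.59 and 4.27, gave wider gaps. Their log2 medians differed from those of A by -1.16, -0.71 and -1.28 in B and by -1.19, -0.81 and -1.35 in C. The size of the COL12A1 difference thus also depends on the probe set. COL13A1, like COL23A1 a transmembrane collagen, ran from 4.75 to 5.45, and A overlapped with B. These values are those of its brightest probe set, and its other probe sets lay near the floor with means of at most 2.33. The remaining 8 fibril-associated genes had means below 4, with COL16A1 the highest among them at 3.28 to 4.53.

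**Figure D2:**
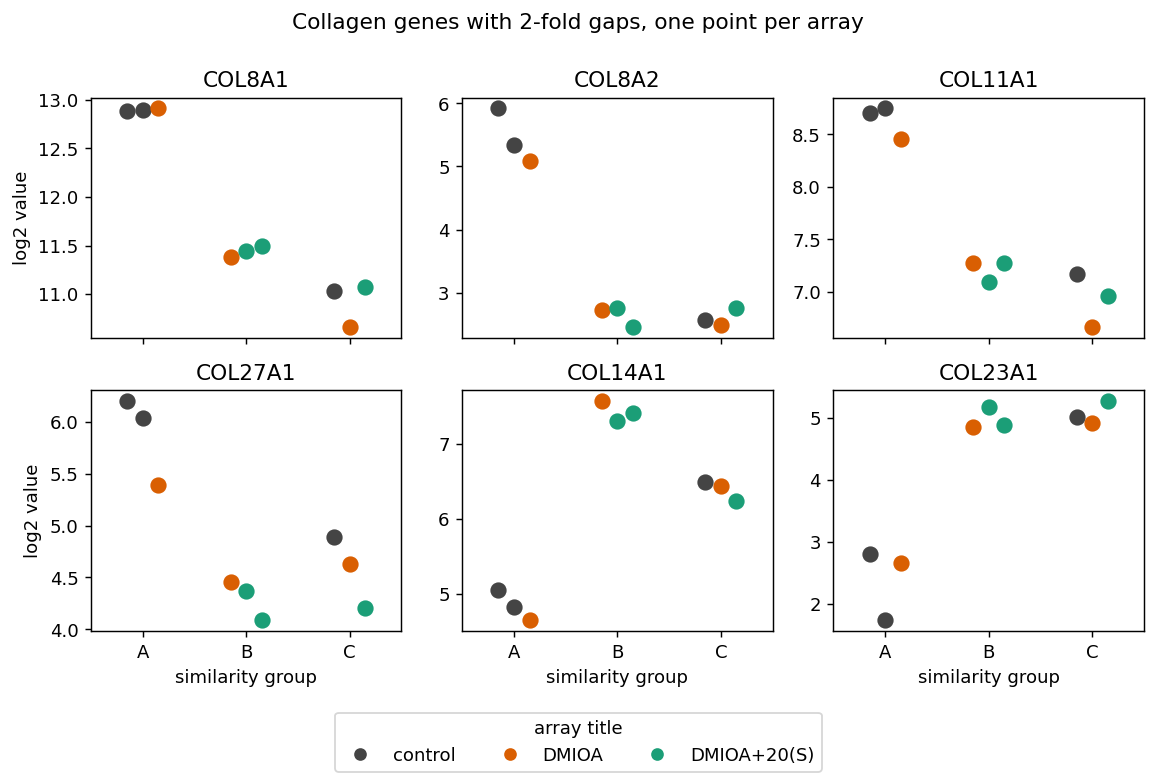
Log2 values of 6 collagen genes (y axis) on the 9 arrays sorted into the similarity groups A, B and C (x axis), with 1 point per array, colored by title. COL8A1, COL8A2, COL11A1 and COL27A1 were highest in A and COL14A1 and COL23A1 lowest, and the point of DMIOA 1 lies with those of control 1 and 2 rather than with the other points of its color.

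Type VI collagen, built from the products of COL6A1, COL6A2 and COL6A3, is abundant in adipose tissue. All 3 genes were higher in B and C than in A, with no overlap. COL6A3 read 13.05, 12.90 and 12.93 in A, 13.84, 13.72 and 13.87 in B, and 13.63, 13.45 and 13.53 in C, a 1.87-fold gap between the medians of A and B. COL6A1 read 12.56, 12.66 and 12.71 in A and between 13.19 and 13.47 on the other 6 arrays. COL6A2 differed least, with medians of 11.93 in A, 12.19 in B and 12.12 in C. COL6A6 lay near the floor at 1.19 to 1.73. COL18A1, a multiplexin of basement membranes and the source of the fragment endostatin, had the same order, with 9.29 to 9.34 in A and 9.68 to 9.96 in B and C. By title, the log2 fold changes of DMIOA+20(S) against control were 0.51 for COL6A1, 0.52 for COL6A3 and 0.40 for COL18A1, and none passed the adjusted test.

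The genes of the common basement membrane chains, COL4A1 and COL4A2, differed mainly in C. COL4A1 read 10.06, 10.00 and 9.91 in A, 9.84, 9.80 and 9.92 in B, and 9.60, 9.43 and 9.40 in C. COL4A2 read 10.32, 10.28 and 10.28 in A, 10.12, 10.02 and 10.15 in B, and 9.90, 9.85 and 9.87 in C. The arrays of C were below all others for both genes. The median of C was 1.48-fold below that of A for COL4A1 and 1.33-fold for COL4A2. COL4A3, COL4A4, COL4A5 and COL4A6, whose chains serve specialized basement membranes such as that of the kidney filter, stayed between 1.30 and 3.64. So did COL7A1 of anchoring fibrils (1.79 to 2.30), COL15A1 (1.72 to 2.89), the transmembrane COL17A1 and COL25A1 (1.60 to 2.21), and COL26A1 and COL28A1, with means of 1.76 and 1.79.

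On the RefSeq annotation of the chicken assembly GRCg7b, 6 pairs of collagen genes are direct neighbors, and 3 of these pairs had both genes clear of the floor. COL4A1 and COL4A2, which lie side by side, were both lowest in C, and COL6A1 and COL6A2 were both lowest in A. The neighbors COL5A2 and COL3A1 shared no overlap between A and B, with B higher in both, but C lay below B with 12.35, 12.17 and 12.49 for COL5A2, which overlapped A.

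Between C and B the differences without overlap ran one way, while COL23A1 and COL27A1 overlapped and had higher medians in C. Of the 18 collagen genes clear of the floor, 10 were lower in C with no overlap (55.6%, beside 12.9% of the 6620 genes with a mean of at least 4), and 0 were higher, beside 16% of those genes. Over all 41 the counts were the same, 10 lower and 0 higher, beside 9.26% and 11.1% of all genes. The 10 are COL1A2, COL3A1, COL4A1, COL4A2, COL5A1, COL5A2, COL6A3, COL8A1, COL13A1 and COL14A1. All 10 gaps were below 2-fold, and the widest was that of COL14A1 at 1.95-fold. Gaps of 2-fold or more between C and B were found in 1.45% of all genes (0.853% higher and 0.592% lower). B and C were formed from the same values, so nothing further is read from these shares.

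**Figure D3:**
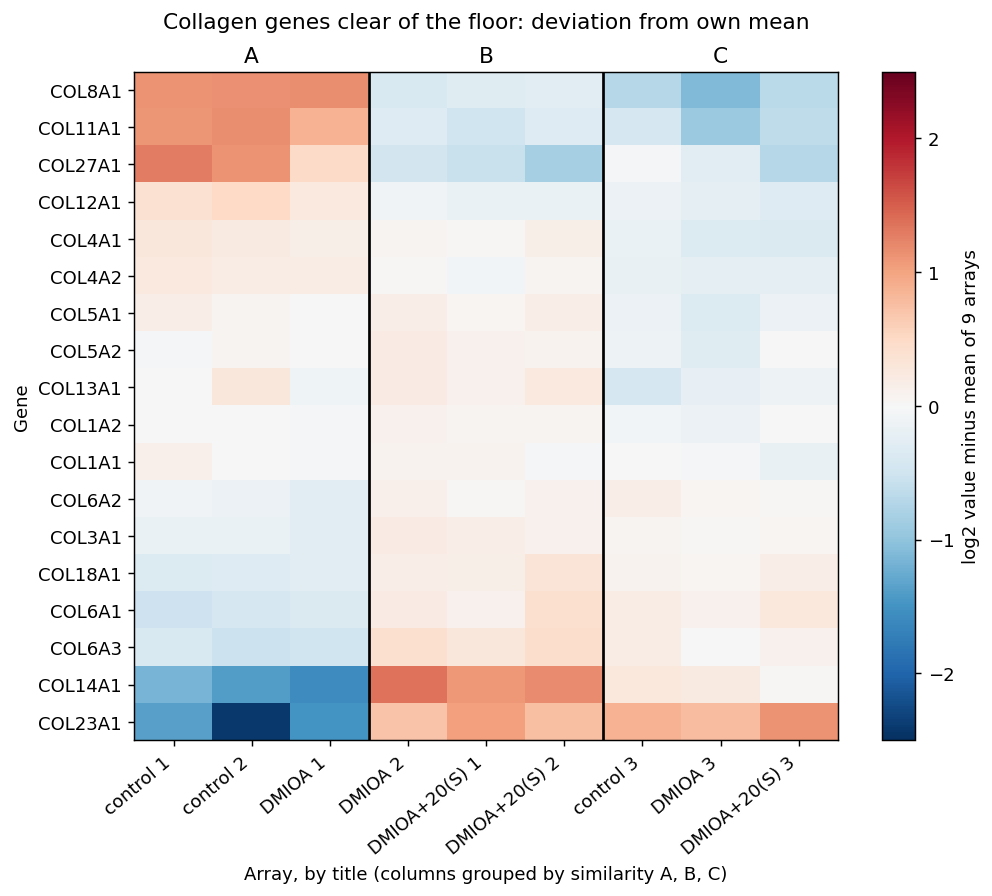
Log2 value minus the mean of the 9 arrays (color) for the 18 collagen genes with a mean of at least 4 (y axis, sorted by their difference from A) on each array by title (x axis), with lines between the similarity groups A, B and C. COL8A1 to COL12A1 at the top are high in A, COL6A2 to COL23A1 at the bottom are low in A, and COL1A1 and COL1A2 between them are palest.

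The titles and descriptions of the replicate 3 arrays, which make up C, are worded unlike those of the other arrays, and this difference in the labels was tested as a possible batch. With the title group in the fit, limma called 108 of 38439 probe sets (0.281%) between replicate 3 and replicates 1 and 2, with 0.193% higher and 0.0885% lower, and 0 of the 41 collagen genes. Unadjusted p-values under 0.05 were found for 7 of the 41 collagen genes (17.1%), each by its brightest probe set, beside 10.3% of all probe sets, dim ones included. The largest log2 differences were -1.44 for COL8A2 (standard error 0.66, limma adjusted p = 0.508), 1.39 for COL23A1 (0.60, adjusted p = 0.485), -1.25 for COL8A1 (0.37, adjusted p = 0.314) and -0.99 for COL11A1 (0.31, adjusted p = 0.340). The smallest adjusted p from limma, 0.0615, was that of COL4A1 with -0.44 (standard error 0.07). The median difference of the 41 genes was -0.01, beside 0.01 over all genes. This batch cannot be told apart from membership of C. Replicates 1 and 2 hold the arrays of both A and B, so these differences also carry that between A and the rest. The median of C differed from that of B alone by -0.17 for COL8A2, 0.13 for COL23A1 and -0.31 for COL11A1, all with overlap. For COL8A1 it differed by -0.41 without overlap.

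Several collagen genes are read by more than 1 probe set (31 of 41, with up to 8 for COL1A2), and within a gene these did not always run together. The brightest COL1A2 probe set differed little between arrays, as given above, but the fourth in brightness read 8.43, 8.46 and 9.94 on control 1, control 2 and DMIOA 1, 9.05, 8.87 and 10.45 on DMIOA 2, DMIOA+20(S) 1 and DMIOA+20(S) 2, and 9.01, 8.22 and 10.01 on control 3, DMIOA 3 and DMIOA+20(S) 3. In each similarity group 1 array stood above the other 2, namely DMIOA 1, DMIOA+20(S) 2 and DMIOA+20(S) 3. The third COL3A1 probe set read 8.11, 8.17 and 10.19, then 9.77, 9.65 and 12.09, then 9.45, 8.84 and 11.29 on the same arrays, and the second COL5A2 probe set 8.59, 8.63 and 10.02, then 8.63, 8.42 and 10.19, then 8.23, 7.88 and 9.54.
The same 3 arrays were high each time. Of the 22 further probe sets with a mean of at least 4, 9 were at least 0.5 above the mean of the other arrays of their group on all 3 (4 genes: COL1A2, COL3A1, COL5A2 and COL6A1), against 0 of the 18 brightest probe sets and 4.26% of all 11562 probe sets with such a mean. These arrays were picked from these values, so the shares are a description.

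Control probe sets placed along the actin and GAPDH transcripts, which track RNA integrity and labeling, set the same 3 arrays apart. The log2 level at the 3′ end of actin exceeded that at the 5′ end by 1.30 and 1.31 on control 1 and 2 but by 0.48 on DMIOA 1. It exceeded it by 2.49 and 2.30 on DMIOA 2 and DMIOA+20(S) 1 but by 1.11 on DMIOA+20(S) 2, and by 2.31 and 2.63 on control 3 and DMIOA 3 but by 1.34 on DMIOA+20(S) 3. For GAPDH the excess was 0.30, 0.25 and 0.36 on these 3 arrays and 0.45 to 0.66 on the other 6. By title the 3 arrays are 2 of DMIOA+20(S), 1 of DMIOA and 0 of control. The third COL3A1 probe set, named after its values were seen, differed between DMIOA+20(S) and control by 2.44 on the log2 scale (standard error 0.65, limma adjusted p = 0.492), and by 1.69 with the GAPDH excess as a covariate (limma adjusted p = 0.517). The brightest COL3A1 probe set differed by 0.19 (standard error 0.13) in the same comparison.
For the genes with the widest gaps between A and the other groups, the deviations of the 3 arrays were mixed. On DMIOA 1, DMIOA+20(S) 2 and DMIOA+20(S) 3 COL27A1 lay at -0.72, -0.32 and -0.56 from the mean of the other arrays of the group, and the second COL8A1 probe set at 0.19, 0.24 and 0.15. The part of RNA quality in these values was not tested. The second COL8A1 probe set read 10.07, 10.04 and 10.25 in A, 7.91, 7.66 and 8.03 in B, and 6.98, 6.40 and 6.84 in C. Those of COL11A1 and COL14A1 with a mean of at least 4 also lay on the same side as the brightest, so that 4 of 4 further probe sets of these 3 genes had the direction given above in B and in C. COL8A2 has only 1 probe set, and the further probe sets of COL23A1 (means 2.07 and 1.51) and COL27A1 (mean 1.98) lay near the floor. The gaps of COL8A2, COL23A1 and COL27A1 thus rest on 1 probe set each. Over all collagen genes, 20 of 22 further probe sets with such a mean lay on the side of the brightest in B and 17 of 22 in C. The further probe sets were read on the same arrays, and A, B and C rest on these values. COL8A1, COL11A1 and COL14A1 were also picked for their gaps, so these counts are a description and test nothing.

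**Figure D4:**
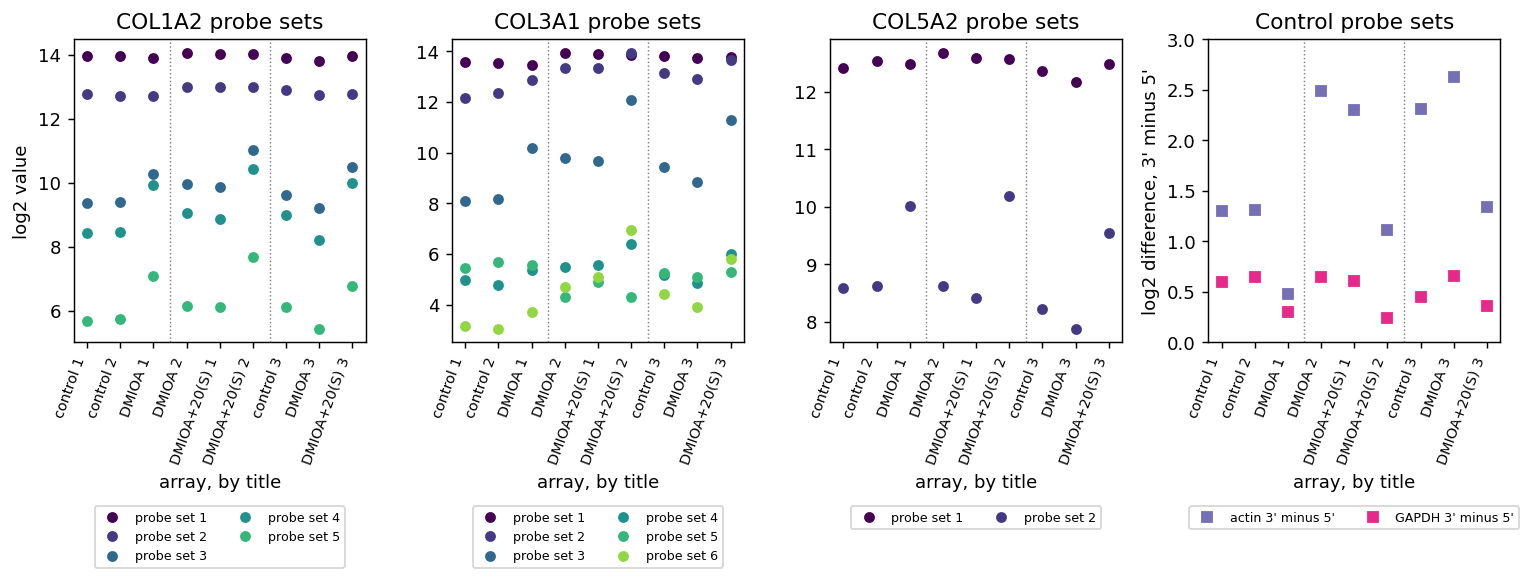
Log2 values of the probe sets of COL1A2, COL3A1 and COL5A2 with a mean of at least 4, numbered by brightness, and the 3′ minus 5′ log2 difference of actin and GAPDH control probe sets, on the 9 arrays by title (x axis, dotted lines between A, B and C). The third array of each group has higher values for most of the dimmer collagen probe sets and a smaller 3′ excess for actin, 0.48, 1.11 and 1.34, than its neighbors.

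Genes that make, trim, cross-link or bind collagen were followed as a list of 40 measured genes. By title, limma called 0 of them in each treatment comparison, and the median log2 fold change was -0.04 in all 3. In DMIOA+20(S) against control the largest differences were -1.75 for BGN, the proteoglycan biglycan, 1.63 for TLL1, a protease that trims procollagen, -1.55 for CTHRC1, a secreted protein of remodeling tissue, and -1.52 for ITGA11, a subunit of a collagen receptor (adjusted p = 0.553, 0.492, 0.494 and 0.492 from limma). BGN read 4.01, 4.37 and 5.27 in A but 1.32 to 1.88 on the other arrays, near the floor, so its difference and its rank are not measured on both sides.
Between the similarity groups, 11 of the 40 were higher and 14 lower in B than in A with no overlap, beside 20.6% and 22.3% of all genes, and 7 were higher and 17 lower in C, beside 21.7% and 21.5%. The rest overlapped. Most of the list, 31 of 40, had a mean of at least 4. Among the 6620 genes with such a mean the shares were 29.6% and 32.3% in B and 31.3% and 30.7% in C. TLL1 read 7.23, 7.21 and 7.41 in A, 9.53, 9.62 and 9.56 in B, and a median of 8.87 in C, the same order of groups as COL14A1. ITGA11 read 9.01, 8.92 and 9.12 in A against 6.72 to 7.30 on the other arrays, and CTHRC1 6.51, 6.18 and 6.32 against 3.93 to 4.31. LOXL1, a cross-linking lysyl oxidase, was low in A (11.51, 11.34 and 11.37) and read 12.81 to 12.92 elsewhere. The chaperone SERPINH1, which binds collagen in the endoplasmic reticulum, was higher in A by less, with 11.93 to 12.02 there and 11.37 to 11.61 on the other arrays. P4HB, a subunit of prolyl 4-hydroxylase, ran from 12.33 to 12.82, and A overlapped B. LOX, lysyl oxidase, was lower on the replicate 3 arrays by 0.96 (log2 difference -0.96, adjusted p = 0.0132 from limma), just short of the 2-fold minimum, with 4.43, 4.71 and 5.22 there against 5.46 to 6.11 on the others.

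Markers of other cell types also differed between A and the other groups. The mean over 9 measured macrophage and leukocyte markers was 4.13 to 4.33 on the arrays of A, 3.28 to 3.33 in B and 3.21 to 3.51 in C. Only CTSS and LY86 of these 9 had a mean of at least 4 over all arrays. In B and in C, 7 of the 9 were lower than in A with no overlap, beside 22.3% and 21.5% of all genes. MARCO and TLR4 overlapped between the groups. The widest gaps were those of PTPRC, with medians of 5.16, 2.21 and 2.44, and SPI1, with 4.19, 2.37 and 2.62, both near the floor outside A. The mean of 4 smooth muscle markers was 5.99 to 6.31, 4.92 to 5.11 and 4.54 to 4.67, and its members did not run together. ACTA2, the smooth muscle actin, had medians of 8.35 in A, 4.50 in B and 4.04 in C, and TAGLN, an actin-binding protein, of 10.58, 8.49 and 8.01. MYH11, a smooth muscle myosin, ran the other way with 4.01, 5.54 and 4.92 and no overlap with A, and DES, the intermediate filament desmin, stayed near the floor at 1.29 to 1.80. The 8 endothelial markers averaged 3.66 to 3.72, 3.19 to 3.25 and 3.21 to 3.42, with KDR, TEK, TIE1, VWF and EMCN near the floor and not running together. CDH5 and ERG were lower in B and C than in A with no overlap, and PECAM1 overlapped between the groups. CDH5 had medians of 6.75, 4.15 and 4.71, but read 6.15 on DMIOA 3. For 6 adipocyte markers the means were 5.08 to 5.22, 5.81 to 6.10 and 5.56 to 5.88, which rest largely on FABP4, a fatty acid carrier of adipocytes, with medians of 10.22, 13.69 and 13.39. PPARG, the nuclear receptor of fat cell differentiation, had medians of 9.01, 8.55 and 8.35, lower in C than in A with no overlap. LPL, lipoprotein lipase, overlapped between the groups, and PLIN1, CEBPA and ADIPOQ lay near the floor. The mean of 2 mesothelial markers was 3.76 to 3.97, 3.69 to 3.83 and 3.05 to 3.75, lower in C than in A with no overlap. Of these 2, MSLN lay near the floor. LRRN4 had medians of 6.09, 5.95 and 5.20 and was lower in C than in A or B with no overlap. The means of 5 cartilage markers (1.94 to 1.98, 2.04 to 2.09 and 1.97 to 2.01) and of 2 erythroid markers (1.47 to 1.65, 1.67 to 1.82 and 1.61 to 1.73) varied less, and all these genes lay near the floor. The part of these cell types in the collagen values was not tested.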

How the data were processed

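RNA of 9 cultures was hybridized to Affymetrix chicken arrays. The authors corrected, normalized and summarized the scanned intensities with GCRMA in FlexArray, and the deposited values are on a log2 scale, with 1 per probe set. Versions are not given in the sources used here. GCRMA shrinks differences near its floor. Title groups come from the labels. Of 38535 probe sets, 96 array controls were left out and 38439 tested. The annotation gave 1 symbol for 27168, several for 177 and none for 11094. All 9 arrays entered 1 model (lmFit and eBayes of limma 3.58.1, R 4.3.3), with Benjamini-Hochberg adjustment over all probe sets, and the step was tested on simulated data. Fold changes with tests are named for the 4 members with the largest difference per comparison, and levels by structural class. Differences given for COL3A1, COL4A1, COL6A1, COL6A3 and COL18A1 were chosen after their values were seen. A mean log2 value of 4 was the limit for members clear of the floor. Related genes were the 4 largest or others named after their values were seen. The lists hold collagen-making genes and markers of fibroblasts, adipocytes, macrophages, endothelium, mesothelium, smooth muscle, cartilage and erythroid cells. Members, groups A, B and C, and lists were chosen with earlier results of these data known. Alternatives were the replicate block, replicates 1 and 2 only, the 2 groups alone, the methods' t-test, no minimum fold, quantile normalization, median centering, a filter on dim probe sets, means over probe sets, eBayes with trend and robust, and each array left out. The GAPDH covariate was added after seeing the data. Plots were made with Python 3.11.15 and matplotlib 3.10.9. The number of arrays, 3 per title, limits the precision.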

Additional observations from a re-analysis of the deposited data

How the results depend on the processing

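The count of collagen genes called by limma was 0 under every alternative run, and the methods' t-test before adjustment gave 1 in DMIOA+20(S) against control. Over all probe sets that t-test gave 221 in DMIOA+20(S) against control, 5 in DMIOA+20(S) against DMIOA and 1 in DMIOA against control. The authors, who also filtered by false discovery rate, report many more genes for DMIOA+20(S) against DMIOA and for DMIOA against control. Why the counts differ was not tested. The 2 probe sets that limma called in DMIOA+20(S) against control became 0 with the replicate block, with replicates 1 and 2 only, with the 2 groups alone, under the t-test after Benjamini-Hochberg adjustment, with the filter on dim probe sets, with trend and robust and with the GAPDH covariate, and 1 after quantile normalization. Leaving out any 1 array gave 0 to 0. Between replicate 3 and the others, leaving out 1 array gave 32 to 117 calls against 108, with 55 without control 1, 60 without control 2 or control 3, 32 without DMIOA 3 and 54 without DMIOA+20(S) 3. Same-numbered arrays deviated from their title means with correlations of -0.56 to 0.70 over 9 pairs, 5 of them at or below 0.1. Of the 9 arrays, 4 correlated best with their own number. Title groups mix arrays of different similarity groups, and the deviations carry that grouping. They cannot show whether same-numbered arrays share a hen. The numbers were not taken to pair the arrays, and the block moved no collagen count. The replicate 3 arrays also share the wording of their labels and group C.

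Of 276 recomputed fold changes of named members, 274 kept their direction and stayed uncalled. In DMIOA+20(S) against DMIOA, COL8A2 ran from -1.25 to 0.044 and COL14A1 from -0.022 to 1.44 with 1 array left out. In DMIOA+20(S) against control, COL8A2 became -1.29 without control 1 and -2.97 without control 3, and COL23A1 became 1.20 without control 2. Means over the probe sets of a gene gave smaller differences in this comparison, 0.71 for COL23A1, 0.52 for COL14A1 and -0.75 for COL27A1. Probe sets near the floor enter these means. Between replicate 3 and the others, COL8A2 became -0.63 and COL23A1 0.70 without control 3, and COL8A2 became -2.24 without DMIOA+20(S) 3. The medians of the collagen genes moved to 0.080 with the GAPDH covariate in DMIOA+20(S) against control, and to -0.16 over the 20 members that passed the filter on dim probe sets between replicate 3 and the others. With 1 array left out they ran from -0.078 to -0.0078 in DMIOA against control, from -0.020 to 0.10 in DMIOA+20(S) against DMIOA and from -0.081 to -0.00064 between replicate 3 and the others. The cause of these shifts was not tested. Signal near the floor limits COL8A2 and COL23A1, and values near the top of the scale limit COL1A1 and COL1A2.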
